A study of Drosophila melanogaster with 6 samples.

Results

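The Osiris and Tweedle genes are families of insect genes that serve the building of cuticle, and their transcripts were followed in Drosophila melanogaster embryos with and without the forkhead transcription factor FoxL1. Members were taken by their current symbol, Osi followed by a number or a symbol starting with Twdl, among the probe sets that name 1 gene. This gave 48 genes of 11982 measured, 24 Osiris and 24 Tweedle genes. Each was read by 1 probe set, so no member has a second reading on the array. Under these symbols the gene table used for names lists 25 Osiris and 26 Tweedle genes. Osi10a, TwdlJ and TwdlU have no probe set of their own and were not analysed here. The probe set listed for Osi10b carries the identifier of the former gene Osi10, whose name Osi10a now shares, and whether it also reads Osi10a is not settled.

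Osiris proteins are small, mostly secreted or membrane-bound proteins with a signal peptide, made by epithelia that lay down chitin-rich cuticle, such as the epidermis, the trachea, the foregut and the hindgut. Several of them act in the maturation of tracheal tubes, and Osi23, also called gore-tex, is needed for the pores in the cuticle of odour-sensing bristles. Most Osiris genes sit side by side in a single cluster, in the region of the Triplo-lethal locus, which kills the animal in 1 or 3 copies. Tweedle proteins are structural cuticle proteins. Dominant mutations of TwdlD, and of the related gene Tubby (Tb), make larvae and pupae short and stout. Both families are switched on late in embryogenesis, when the cuticle of the larva is secreted.

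Total RNA of whole embryos was hybridised to Affymetrix Drosophila Genome 2.0 arrays, 3 for the wild-type line Oregon R and 3 for foxL1 null embryos. The null embryos came from flies with a deletion allele, foxL1del, over a second allele, foxL1cr (foxLCr in the genotype label). The null and the wild-type embryos thus come from different lines, and genotype and line cannot be told apart. No other allele or treatment is given, the age of the parents is not stated, and the labels call the samples independent biological samples. The labels give stages 11 to 15 for both groups, while the growth protocol describes egg laying over 8 h and then 11 h more of ageing, which would include later embryos. In whole embryos, fewer cells of a tissue and less transcript per cell cannot be told apart.

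Values are log2 signals after robust multi-array averaging (RMA), so a difference of 1 is a doubling. The median signal of an array lay between 4.87 and 5.08, the 25th percentile between 2.97 and 3.01, near the floor, and the highest signal between 13.37 and 13.44. The FoxL1 probe set read 4.85, 5.12 and 5.01 in the wild type against 4.23, 4.35 and 3.37 in the null embryos, lower in all 3 (limma log2 difference -1.01, SE 0.25, adjusted p = 0.0489), a call that held with 2 of the 6 arrays left out in turn and not with the others. It held in 5 of 8 other settings, and ended with either rescaling of the arrays and with no shared spread (adjusted p = 0.22). Null array 3 had the lowest 3' to 5' difference between actin controls, which reflects how intact the RNA is, 0.20 against 0.67 to 0.82 on the other arrays. It also had the lowest difference for eIF-4a, 0.71 against 0.88 to 0.93, but the highest for GAPDH, 0.62 against 0.43 to 0.53, so the controls did not point one way. Its array weight, 0.317, was the lowest of the 6. Null array 2 had the next lowest weight, 0.6, against 0.974 to 2.15 on the other arrays. It had the highest 3' to 5' differences for actin and eIF-4a, 0.82 and 0.93. Across the array, 1472 of 18769 probe sets passed the threshold, an adjusted p under 0.05, which is 7.84%, and 3.12% passed as lower in the null embryos. With 3 arrays a group an exact permutation test cannot give a p below 0.1, so every call rests on limma's model of the spread.

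No Osiris and no Tweedle gene passed that threshold in either direction. The lowest limma adjusted p was 0.251 among the 24 Osiris genes and 0.175 among the 24 Tweedle genes. At an unadjusted p under 0.05 there were 0 Osiris and 2 Tweedle genes, where 21.5% of all probe sets reached it. Most members read slightly lower in the null embryos. Of the Osiris genes 19 were lower and 5 higher, with a median log2 difference of -0.21. Of the Tweedle genes 22 were lower and 2 higher, with a median of -0.37. Over all genes the median was -0.07, with 60.0% lower. Only the 2 Tweedle genes TwdlH and TwdlK had all 3 null values below all 3 wild-type values, a pattern found at 14.6% of all probe sets. No member had all 3 null values above the wild type, so 2 of 48 did not overlap in either direction, where 27.0% of all probe sets did not. These shares depend on signal. Of the 7741 genes whose mean over all 6 arrays lay above the 50th percentile of probe sets, 3167 did not overlap. An unadjusted limma p under 0.05 was reached by 2823 of them. Among the members above that percentile each count was 0 of 14 Osiris and 2 of 20 Tweedle genes.

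**Figure D1:**
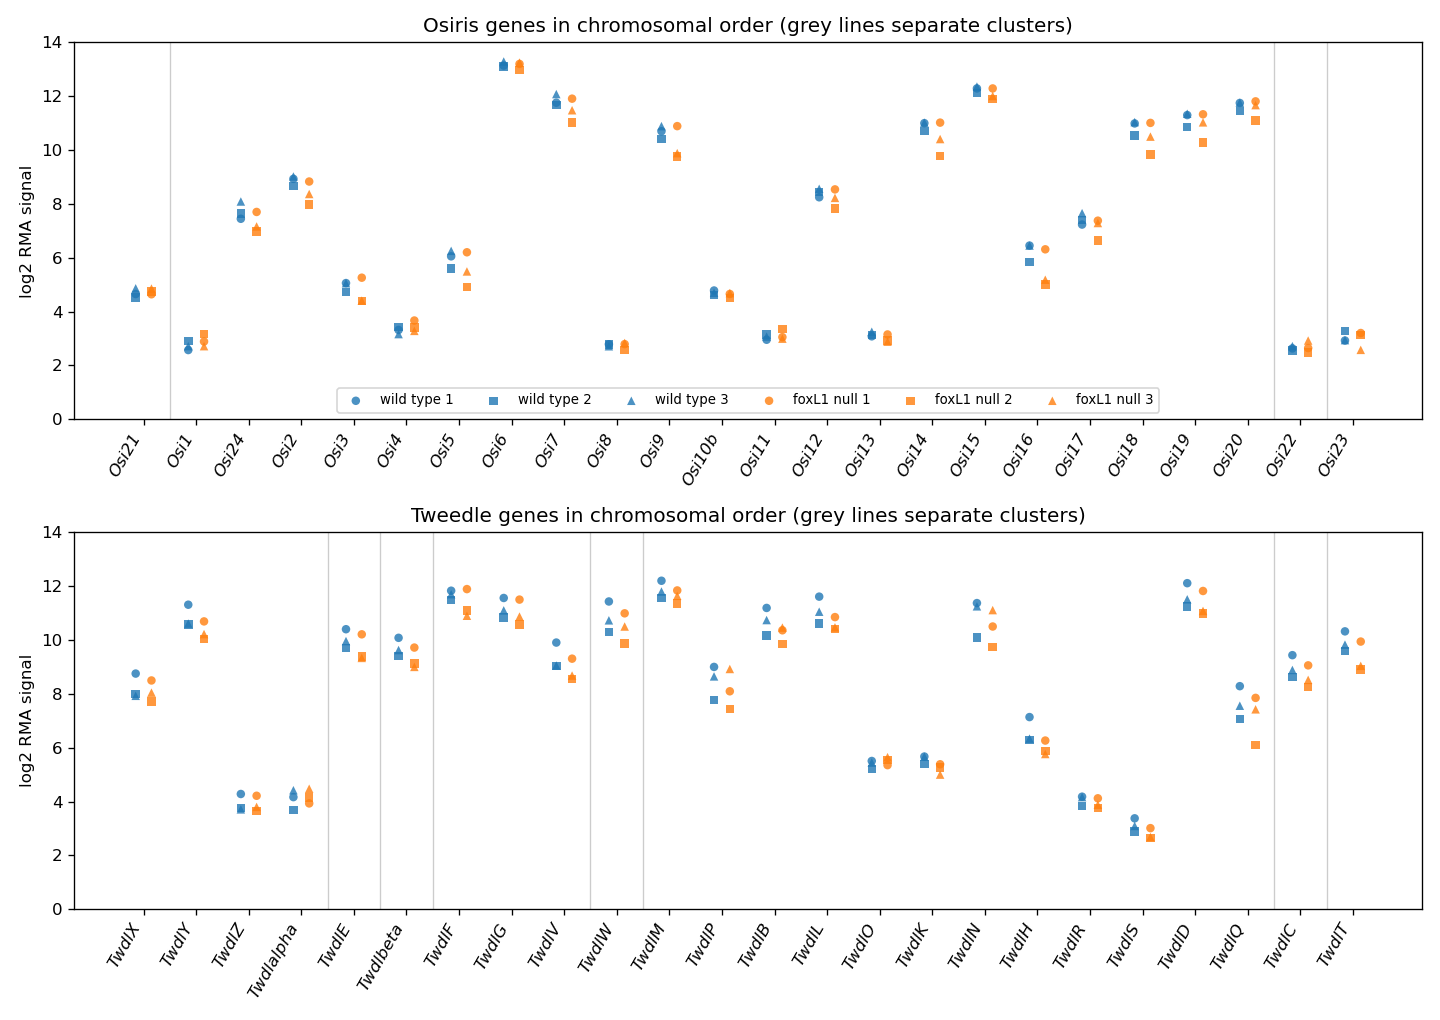
Log2 RMA signal (y axis) of each Osiris gene (top) and Tweedle gene (bottom) on the 6 arrays, in chromosomal order on the x axis. Blue points are wild type, orange points foxL1 null, and circles, squares and triangles are replicates 1, 2 and 3. Osiris signals run from the floor to 13.2, and in the Tweedle genes the wild-type circle, array 1, is mostly the highest point.

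The main Osiris cluster lies on chromosome arm 3R and runs from Osi1 to Osi20 as RefSeq orders the genes (assembly Release 6 plus ISO1 MT). It holds 22 Osiris genes, 21 of them measured, with 7 other genes between them. Osi22 and Osi23 lie elsewhere on 3R and Osi21 on 2L. Wild-type signals within the family ran from 2.64 (Osi22) to 13.2 (Osi6), with 8 genes at a log2 signal of 10 or more and 10 genes below 5. Probe sets differ in how well they bind, so these signals place each gene within the array and do not rank the genes against each other.

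In chromosomal order, probe sets with a strong signal stood beside probe sets near the floor. A gene with little transcript and a poorly binding probe set cannot be told apart here. Osi6 and Osi7 read 13.2 and 11.8 in the wild type, the neighbouring Osi8 2.76, and Osi9 beyond it 10.7. Osi10b, Osi11, Osi12 and Osi13 read 4.70, 3.06, 8.42 and 3.16, and Osi14 and Osi15, next along the arm, 10.9 and 12.3. Osi18, Osi19 and Osi20, at the end of the cluster, read 10.9, 11.2 and 11.7. The 3 genes outside the cluster read low, Osi21 at 4.68, Osi22 at 2.64 and Osi23 at 3.05. Of the 7 other genes inside the cluster 4 had a probe set that named them alone, and none of these passed the threshold, with differences of -0.12 to 0.05 and a limma adjusted p of at least 0.754 (wild-type signals 2.72 to 5.62).

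The lower readings lay mainly among Osiris genes with more signal. Among the 14 Osiris genes whose mean over all 6 arrays lay above the 50th percentile of probe sets, all 14 were lower in the null embryos, by -0.74 to -0.03, with a median of -0.39. Among the 10 at or below that percentile 5 were lower and 5 higher, from -0.26 to 0.19, with a median of 0.01. Over all genes above the percentile the median was -0.11 and 62.8% were lower, and over those at or below it -0.02 and 54.9%. Each of the 24 Osiris differences had a 95% interval that held 0, the lowest bound being -1.54 and the highest 0.54. A fall of 2-fold in some Osiris genes is therefore within what these arrays allow, and so is no change.

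**Figure D2:**
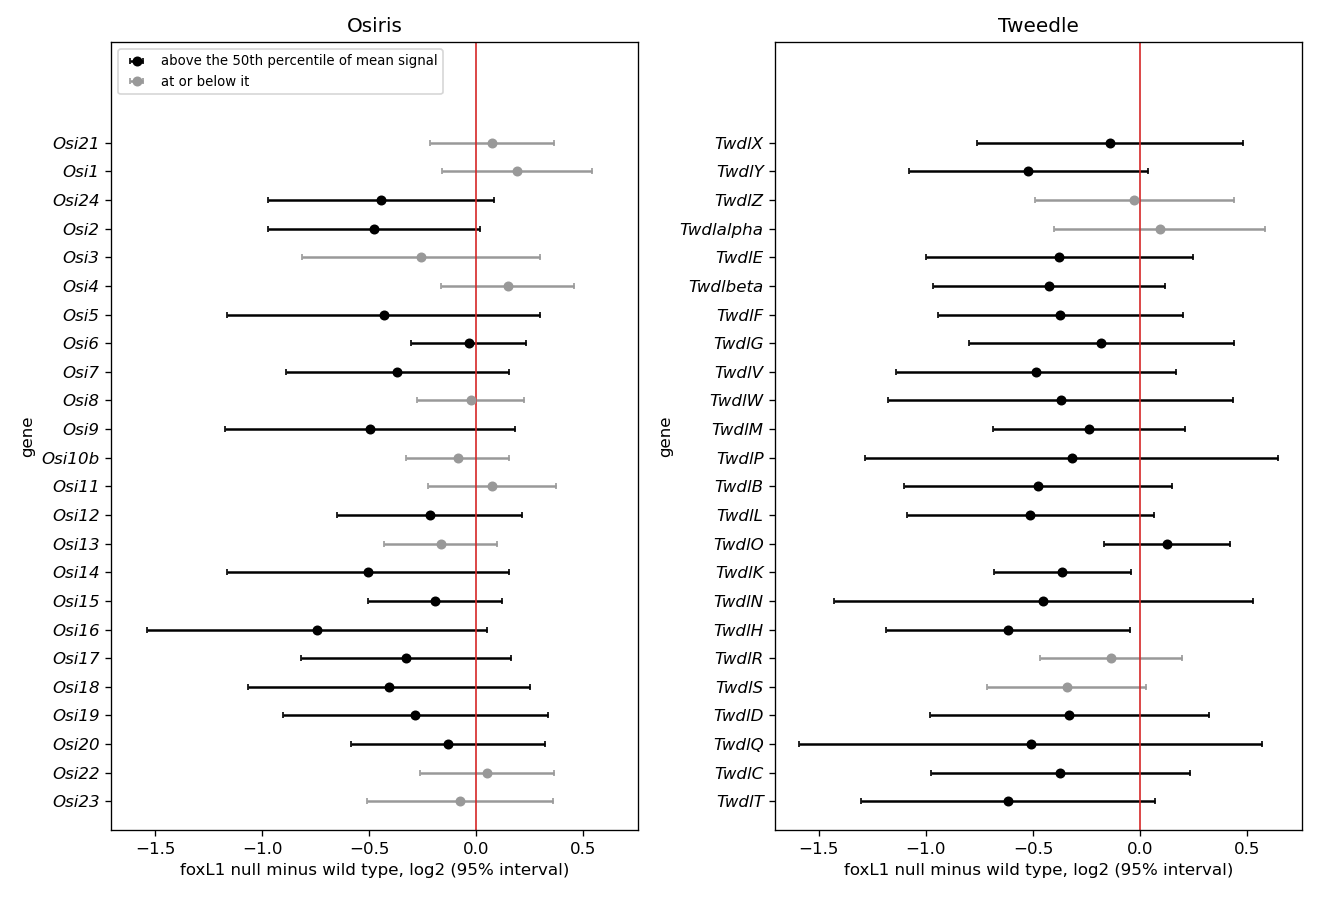
Difference foxL1 null minus wild type in log2 units (x axis), one point per gene (y axis, chromosomal order) with limma's unadjusted 95% interval, from 3 arrays a group. Black points are genes above the 50th percentile of mean signal and grey points the others. All 14 black Osiris points lie left of 0, and the intervals of TwdlH and TwdlK alone leave 0 out.

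Osi16 had the largest Osiris difference. It read 6.45, 5.84 and 6.45 in the wild type against 6.31, 5.01 and 5.18 in the null embryos. Null arrays 2 and 3 lay below every wild-type array, while null array 1 lay among them. The difference was -0.74 (SE 0.34, limma adjusted p = 0.263), 1.68-fold lower, with an interval from -1.54 to 0.05. With the replicate numbers as a block it passed (SE 0.20, adjusted p = 0.0419), and without null array 1 it was -1.15 (adjusted p = 0.0392).

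Osi9 had the same arrays high and low. Its wild-type signals were 10.7, 10.4 and 10.9 and its null signals 10.9, 9.76 and 9.89. The difference was -0.50 (SE 0.29, limma adjusted p = 0.393), and -0.85 without null array 1, where it passed (adjusted p = 0.0416). Osi14 read 11.00, 10.70 and 11.02 in the wild type against 11.02, 9.78 and 10.41 in the null embryos, a difference of -0.51 (SE 0.28, adjusted p = 0.371). Osi2 read 8.93, 8.66 and 9.02 against 8.83, 7.98 and 8.37, a difference of -0.48 (SE 0.21, adjusted p = 0.251). In all of these genes null array 1 was level with the wild type and null array 2 was the lowest of the 6.

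The 4 brightest Osiris genes overlapped between the genotypes. Osi6 read 13.14, 13.10 and 13.29 in the wild type against 13.20, 12.98 and 13.25 in the null embryos, a difference of -0.03 (SE 0.12, limma adjusted p = 0.906, 95% interval -0.30 to 0.23). Its signal lay at percentile 99.97 of all probe sets, close to the highest signal on the array. A probe set there may have little room to show a difference, which was not tested. Osi15 read 12.29, 12.12 and 12.36 against 12.29, 11.89 and 12.01, a difference of -0.19 (SE 0.13, adjusted p = 0.481). For Osi7 the signals were 11.76, 11.67 and 12.08 against 11.91, 11.02 and 11.48, and for Osi20 they were 11.75, 11.46 and 11.76 against 11.81, 11.09 and 11.67. Their differences were -0.37 (SE 0.22, adjusted p = 0.415) and -0.13 (SE 0.19, adjusted p = 0.764).

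The remaining Osiris genes above the 50th percentile of mean signal differed by -0.22 (Osi12) to -0.44 (Osi24). Osi19 differed by -0.28, Osi17 by -0.33, Osi18 by -0.41 and Osi5 by -0.43. Among the genes of low signal Osi1, at 2.57, 2.92 and 2.72 in the wild type against 2.89, 3.17 and 2.72 in the null embryos, had the highest difference of the family, 0.19 (SE 0.15, limma adjusted p = 0.542). Osi4 (0.15), Osi11 (0.07), Osi21 (0.07), Osi22 (0.05), Osi8 (-0.03), Osi23 (-0.07), Osi10b (-0.09), Osi13 (-0.17) and Osi3 (-0.26) completed the family. Of these, Osi3, Osi10b and Osi21 read near the array median, and the others nearer the floor, where RMA compresses differences.

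Null array 2 stood lowest for the Osiris genes with more signal. For all 14 Osiris genes above the 50th percentile null array 2 was the lowest of the 6 arrays, while 20.8% of all genes had their lowest value there. Null arrays 2 and 3 both lay below every wild-type array in 10 of the 14, against 25.3% of all genes. Null array 1 lay below all wild-type arrays in 0 of the 14 and within their range in 13. The median deviation of these 14 genes from their own means was 0.22, -0.02 and 0.39 on wild-type arrays 1 to 3, and 0.24, -0.64 and -0.16 on null arrays 1 to 3. Without null array 2 their median difference was -0.12, with 11 of 14 lower, and without null array 1 it was -0.62. Over the whole family 2 Osiris genes, Osi9 and Osi16, passed as lower without null array 1, where 1.94% of all probe sets did. A low null array 2 was not particular to Osiris genes. It was the lowest array in 14 of the 20 Tweedle genes above the 50th percentile. In 11 of these 20 null arrays 2 and 3 both lay below every wild-type array. The shares of all genes include genes of low signal.

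**Figure D3:**
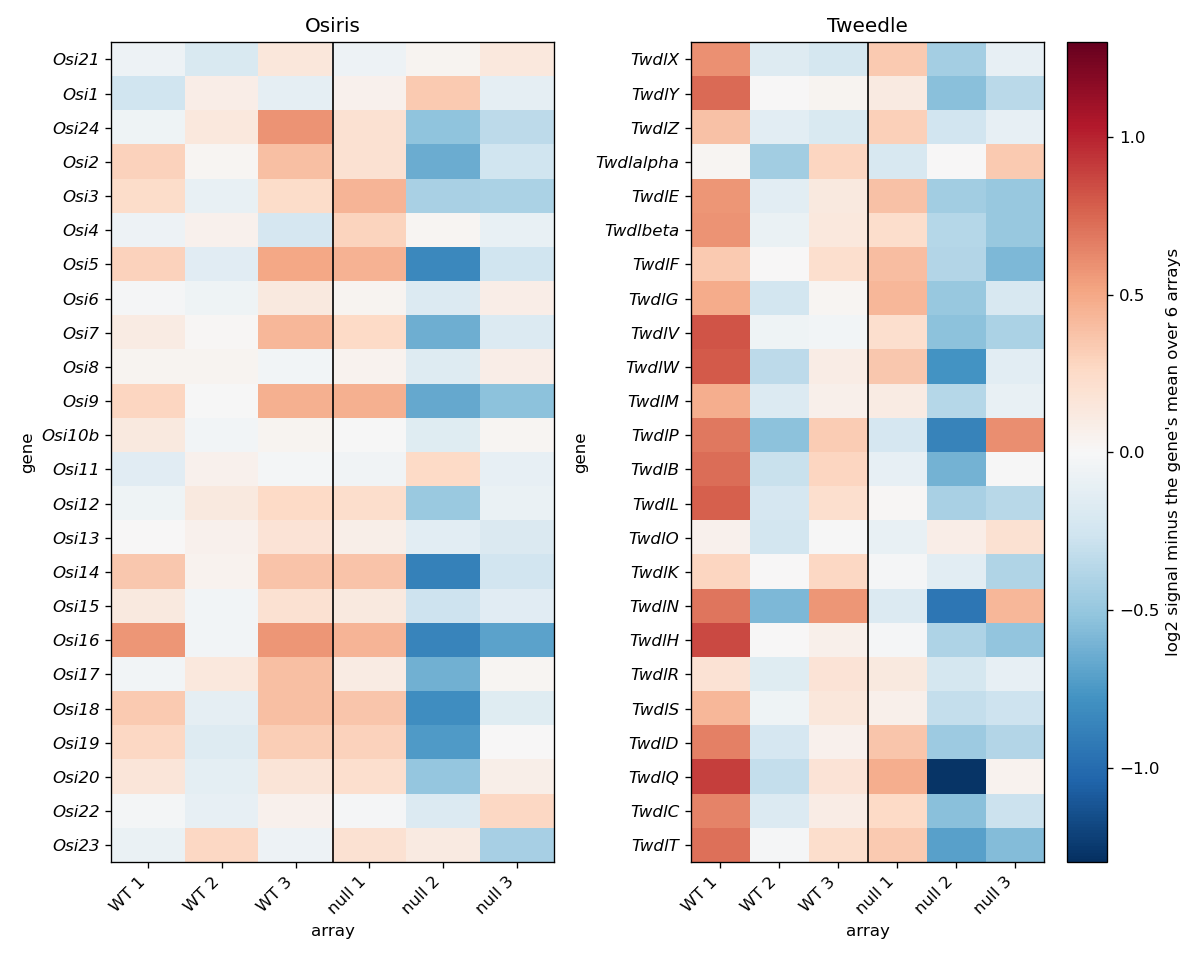
Log2 signal of each gene (rows, chromosomal order) minus its mean over the 6 arrays (columns), on a colour scale from blue (below the mean) to red (above it), for Osiris (left) and Tweedle genes (right). The black line separates wild type from foxL1 null. In both panels the bluest column is null 2, and in the Tweedle panel the red column is WT 1.

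The Tweedle genes lie in 3 groups and 5 single places. The largest group, TwdlM to TwdlQ on 3R, holds 13 genes, of which 12 were measured. TwdlU to TwdlV on 3R holds 4, of which 3 were measured, and TwdlX to Twdlalpha on the X chromosome holds 4, all measured. TwdlW, TwdlC and TwdlT stand alone on 3R, TwdlE on 2L and Twdlbeta on 2R. Wild-type signals ran from 3.12 (TwdlS) to 11.9 (TwdlM), with 10 genes at 10 or more and 4 below 5. Close relatives may share probes' targets, and cross-binding between them was not tested. None of the 48 probe sets carries the suffix that the maker gives to probe sets shared by several genes.

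The lower readings of Tweedle genes did not come from 1 group. The median difference was -0.35 in the TwdlM to TwdlQ group (11 of 12 lower), -0.37 in the TwdlU to TwdlV group (3 of 3) and -0.08 in the X-linked group (3 of 4). The single genes differed by -0.37 (TwdlW), -0.37 (TwdlC), -0.38 (TwdlE), -0.43 (Twdlbeta) and -0.62 (TwdlT). Among the 20 Tweedle genes above the 50th percentile of mean signal 19 were lower, with a median of -0.38. TwdlO was the exception, at 5.50, 5.21 and 5.45 in the wild type against 5.35, 5.54 and 5.65 in the null embryos (difference 0.12, SE 0.13, limma adjusted p = 0.646).

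TwdlH and TwdlK were the Tweedle genes whose groups did not overlap. TwdlH read 7.14, 6.28 and 6.34 in the wild type against 6.26, 5.87 and 5.76 in the null embryos. The difference was -0.62 (SE 0.25, limma adjusted p = 0.195), 1.53-fold lower, but wild-type array 2 and null array 1 were only just apart. With the replicate block TwdlH passed (SE 0.13, adjusted p = 0.0171). TwdlK read 5.67, 5.40 and 5.67 against 5.38, 5.25 and 5.00, a difference of -0.36 (SE 0.14, adjusted p = 0.175), and did not pass with the block (adjusted p = 0.118).

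The brightest Tweedle genes in the wild type were TwdlM, TwdlF, TwdlD and TwdlG. TwdlD read 12.11, 11.24 and 11.51 in the wild type against 11.82, 10.98 and 11.08 in the null embryos, a difference of -0.33 (SE 0.28, limma adjusted p = 0.574). TwdlM read 12.20, 11.55 and 11.80 against 11.84, 11.36 and 11.64 (-0.24, SE 0.19, adjusted p = 0.556). In both genes the arrays stood in the same order in each genotype, with array 1 highest and array 2 lowest. TwdlF read 11.83, 11.49 and 11.70 against 11.89, 11.10 and 10.90 (-0.37, SE 0.25, adjusted p = 0.458). TwdlG read 11.56, 10.83 and 11.10 against 11.50, 10.58 and 10.87 (-0.18, SE 0.27, adjusted p = 0.766). Each of these 4 genes overlapped between the genotypes. Tb, the gene of the Tubby cuticle protein, carries another symbol and so lies outside the rule, which goes by symbol alone. It differed by -0.45 (SE 0.23, adjusted p = 0.316), and passed with the block (adjusted p = 0.0486).

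The replicate number took a larger share of the variation in Tweedle genes than over all genes. Of the 24 Tweedle genes, wild-type array 1 was the highest wild-type array in 23 and null array 1 the highest null array in 19. Array 2 was the lowest of its group in both genotypes in 15 of 24, against 17.6% of all genes. When each gene's sum of squares over the 6 arrays was split, the median share of the replicate number was 71.0% in Tweedle genes, 55.1% in Osiris genes and 34.9% over all genes. The median share of genotype was 21.3%, 22.5% and 30.4%, and what was left to neither was 4.96%, 19.6% and 17.9%. The number sorts the arrays into more groups than genotype does, so even random variation would give the number a larger share on average. The shares were not corrected for that, so they compare sets of genes and do not weigh number against genotype. A high share of the number was not particular to Tweedle genes. Among the lists described below it was 75.5% in late muscle genes and 70.8% in transcription factor genes of epidermis and trachea. It was 60.8% in chitin-binding cuticle genes, and ran from 22.9% to 57.9% in the other lists. A high share does not mean the same order of arrays. The transcription factor genes deviated from their means by a median of -0.20, 0.21 and 0.06 on wild-type arrays 1 to 3. On null arrays 1 to 3 they deviated by -0.22, 0.49 and -0.30. Array 2 was thus the highest of each group there, while it had the lowest median of each group in Tweedle genes. The labels number the samples of both genotypes d1 to d3 without saying what a number marks.

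In TwdlC almost nothing was left beyond number and genotype, which took 76.7% and 23.3% of its variation. It read 9.44, 8.62 and 8.89 in the wild type against 9.06, 8.25 and 8.52 in the null embryos. The wild-type arrays were spread over a wider range than the distance between the genotypes, yet null minus wild type was -0.38, -0.37 and -0.37 in pairs 1, 2 and 3. The difference, -0.37, had a standard error of 0.26 without the block (limma adjusted p = 0.485) and 0.11 with it (adjusted p = 0.0582). TwdlN ran from 10.1 to 11.4 in the wild type and from 9.73 to 11.1 in the null embryos, and 80.1% of its variation went with the number.

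**Figure D4:**
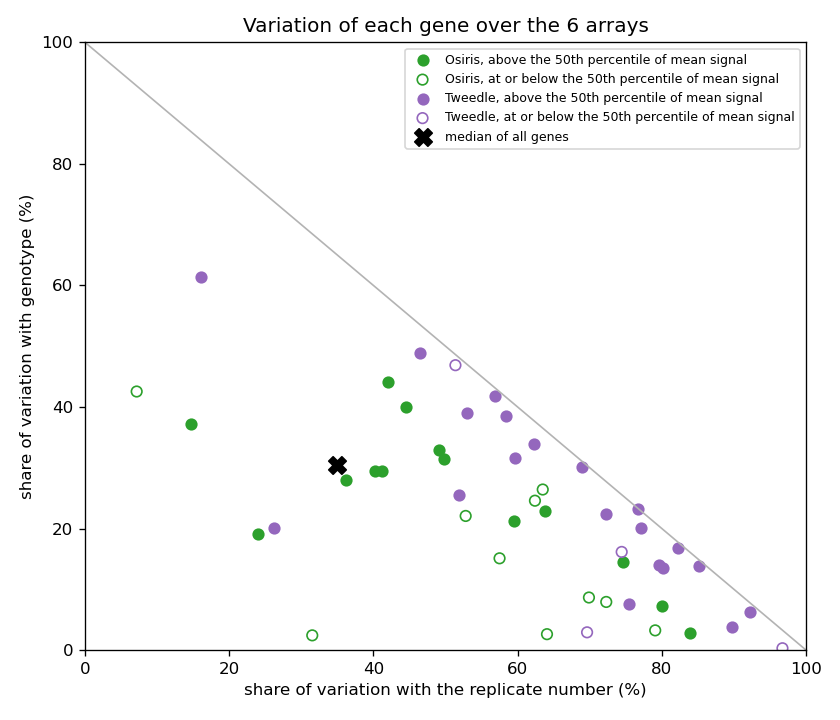
Share of each gene's variation over the 6 arrays that goes with the replicate number (x axis, %) and with genotype (y axis, %), one point per Osiris (green) or Tweedle gene (purple). Filled points lie above the 50th percentile of mean signal, the cross marks the median of all genes (34.9% and 30.4%) and the line marks a sum of 100%. Most Tweedle points lie close to the line, to the right of the cross.

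With the replicate numbers as a block, 5 Tweedle genes passed as lower in the null embryos, and 0 as higher. At this setting 6.91% of all probe sets passed as lower. Of the 7741 genes above the 50th percentile of mean signal 959 did, and 5 of the 20 Tweedle genes above it. Besides TwdlH these were TwdlT (-0.62, SE 0.12, limma adjusted p = 0.0157), TwdlY (-0.52, SE 0.11, adjusted p = 0.0208), TwdlV (-0.49, SE 0.11, adjusted p = 0.0271) and TwdlL (-0.51, SE 0.13, adjusted p = 0.0419). TwdlT read 10.32, 9.59 and 9.83 in the wild type against 9.94, 8.90 and 9.04 in the null embryos. TwdlY read 11.31, 10.58 and 10.61 against 10.69, 10.03 and 10.22. In both genes each null array was below the wild-type array of its number, although null array 1 lay above wild-type array 2.

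TwdlV read 9.90, 9.04 and 9.05 against 9.31, 8.55 and 8.68, and TwdlL 11.61, 10.62 and 11.05 against 10.85, 10.41 and 10.47. They lie in separate groups on 3R, and TwdlY on the X chromosome. Among the 24 Tweedle genes 18 were lower in all 3 same-numbered pairs, and 4 of 24 Osiris genes were, where 27.1% of all probe sets were. An unadjusted p under 0.05 with the block was reached by 15 Tweedle and 6 Osiris genes, and by 26.8% of all probe sets. Osi16 was the 1 Osiris gene past the adjusted threshold there. These counts depend on signal. Of the 7741 genes above the 50th percentile of mean signal 3108 were lower in all 3 pairs, as were 16 of 20 Tweedle and 3 of 14 Osiris genes above it. An unadjusted limma p under 0.05 with the block was reached by 3474 of the 7741, 14 of the 20 and 6 of the 14.

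The families differed between pairs. In pair 1 the median difference was -0.36 for Tweedle and 0.06 for Osiris genes, with 23 and 5 of 24 lower. In pair 2 the medians were -0.30 and -0.35, with 22 and 21 lower, and in pair 3 they were -0.33 and -0.35, with 19 and 21 lower. Over all genes the medians were -0.02, -0.06 and -0.10. These are 3 pairs whose matching comes from the data, and the difference between the families was not tested.

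Lists of other genes of cuticle and of embryonic age were set beside the families. Of 80 chitin-binding cuticle protein genes 0 passed and 52 were lower (median -0.18, 3 at an unadjusted p under 0.05), and 9 passed as lower with the block. Among these Cpr92F read 9.15, 7.75 and 8.40 in the wild type against 7.77, 6.83 and 7.55 in the null embryos (-1.05, SE 0.37, limma adjusted p = 0.145, with the block 0.00236). It was also among the 3 genes at an unadjusted limma p under 0.05. The others of those 3, Cpr64Aa (0.34, adjusted p = 0.139) and Cpr49Ad (0.61, adjusted p = 0.201), were higher in the null embryos. Their signals were low, at 3.32 and 2.38 in the wild type. Of 18 genes of chitin synthesis and the chitin matrix 0 passed and 17 were lower (median -0.20, 1 at an unadjusted p under 0.05), with Idgf1, an imaginal disc growth factor, passing only with the block (-0.71, adjusted p = 0.0945 without and 0.00638 with it). Of 10 cuticle tanning genes 8 were lower (median -0.41, 5 at an unadjusted limma p under 0.05), and 4 passed as lower with the block. Without the block 1 fell, t (tan), an enzyme of the dopamine pathway, by 0.95 (SE 0.22, limma adjusted p = 0.0380). The call of t held with 1 of the 6 arrays left out and ended with any other (highest limma adjusted p 0.127). It also ended with either rescaling of the arrays and with no shared spread.

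Other lists of epithelial genes showed few calls. Of 9 zona pellucida domain genes of the apical matrix 0 passed, and 0 had an unadjusted p under 0.05 (median -0.04). Of 5 genes of actin bundles in denticles and tracheal folds 1 rose, sn (singed, the fly fascin), by 0.62 (SE 0.14, limma adjusted p = 0.0344), a call that held with 1 of the 6 arrays left out (adjusted p of up to 0.122 otherwise) and ended with no shared spread (0.138). Of 10 transcription factor genes of epidermis and trachea 0 passed and 0 had an unadjusted p under 0.05 (median -0.05), with grh and ovo among them. Of 17 septate junction genes 0 passed, 3 had an unadjusted p under 0.05 and 1 passed as lower with the block (median -0.13).

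Lists chosen as markers of embryonic age varied between the arrays too. How well they mark age in these embryos was not tested. On wild-type arrays 1 to 3 and null arrays 1 to 3, the 20 brighter Tweedle genes deviated by a median of 0.67, -0.18, 0.11, 0.22, -0.48 and -0.32 from their means. Late muscle genes, 12 in number, deviated by 0.27, -0.25, 0.28, 0.16, -0.46 and -0.06, so that array 2 was the lowest of each group there as well. The 80 chitin-binding cuticle genes deviated by 0.40, -0.18, 0.04, -0.01, -0.32 and 0.09. Early patterning genes, 19 in number, followed another order, at 0.34, 0.38, 0.14, -0.28, -0.01 and -0.65. Over all genes the deviations ran from -0.07 to 0.03.

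**Figure D5:**
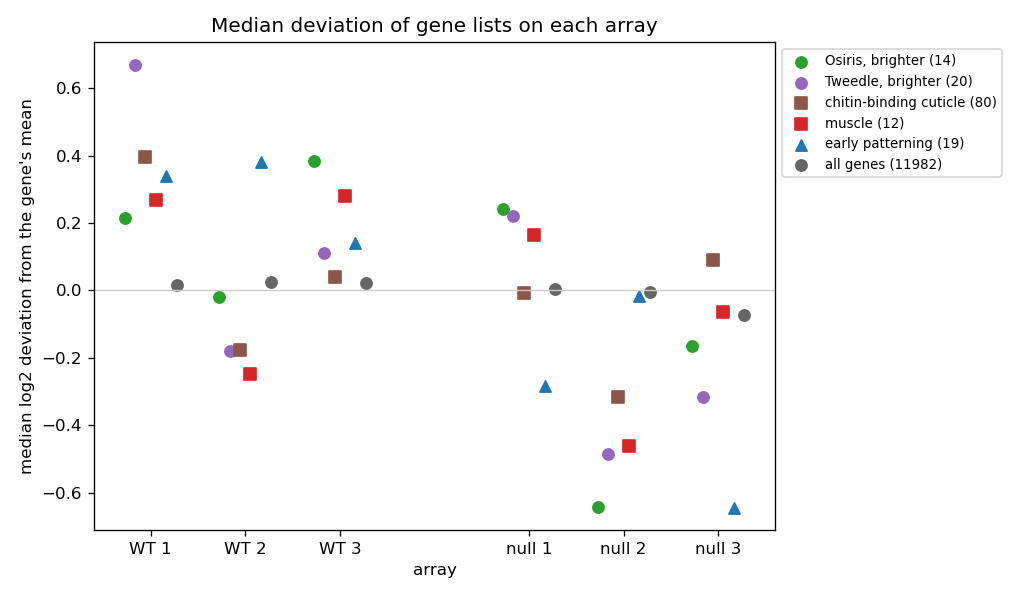
Median log2 deviation of the genes of a list from their own means over the 6 arrays (y axis), for each array (x axis), with the number of genes in the key. Circles are the brighter Osiris and Tweedle genes and all genes, squares chitin-binding cuticle and muscle genes, triangles early patterning genes. Osiris, Tweedle, cuticle and muscle genes have their lowest median on null 2, and early patterning genes on null 3.

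In the tests between the groups, 6 of the 19 early patterning genes fell and 0 rose (median -0.51), 10 falling with the block and 2 to 3 when any array other than null array 2 was left out. Centring gave 3 calls, and a linear model with no shared spread 0 (9 at an unadjusted p under 0.05). Of the 12 muscle genes 0 passed (median -0.15, 1 at an unadjusted p under 0.05) and 2 passed as lower with the block. Of 11 synapse genes 1 fell, Snap25, by 0.58 (SE 0.10, limma adjusted p = 0.0111), and all 11 were lower (median -0.26). The call of Snap25 ended without any 1 of the wild-type arrays (adjusted p of up to 0.0563). What part the age of the embryos, the quality of the RNA or a single array had in the Osiris and Tweedle readings was not tested.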

How the data were processed

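The authors deposited log2 expression values per probe set, made with Partek and RMA per the submitters' processing notes, without versions; RMA corrects background, sets all arrays to one distribution and summarises the probes. No source used here gives a genome build. Of 18952 probe sets 183 controls were left out. Of the other 18769, 13647 named 1 gene, and current symbols came through the gene identifier from RefSeq (Release 6 plus ISO1 MT), used only for names, arms and gene order. Each gene was represented by its probe set with the highest mean. The members and lists were chosen with earlier results of these data known.

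Groups came from the titles. Differences, null minus wild type, come from limma 3.58.1 in R 4.3.3 (lmFit, then eBayes) with no covariate, 2-sided, with Benjamini-Hochberg adjustment over 18769 probe sets and a threshold of 0.05; the fit was tested on simulated data. Intervals are unadjusted. Array values are given for members without overlap between the groups and the brightest 4 of each family by rule, and for others chosen after their values were seen. No member sequence was used.

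The titles number the arrays 1 to 3 in both groups. The deviations of same-numbered arrays from their group means correlated at 0.108, 0.544 and 0.224 across probe sets, each over 0.1, and on this ground, taken from the data alone, the numbers serve as pairs. Wild-type array 1 correlated more with null array 3 (0.266), so the matching is not settled. The alternatives were that block, each array left out, arrays centred on their medians, a further quantile normalization, eBayes with trend, array weights, limits on dim probe sets, no shared spread and the mean over a gene's probe sets. No 2 arrays shared more than 0.0852% of identical values. The number of arrays limits the precision.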

Additional observations from a re-analysis of the deposited data

How the results depend on the processing

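Counts of Osiris and Tweedle genes past the threshold stayed at 0 in every alternative but those named here. With the replicate block 1 Osiris gene and 5 Tweedle genes passed as lower. Leaving out single arrays gave 0 to 2 Osiris genes (2 without null array 1) and 0 Tweedle genes. The median difference ran from -0.348 to -0.099 for Osiris and from -0.57 to -0.184 for Tweedle genes when single arrays were left out, the highest values being those without null array 2, and the lowest those without null array 1. It was -0.187 for Tweedle genes without wild-type array 1 and -0.546 without wild-type array 2. Centring moved the median of all probe sets from -0.03 to 0.089 and those of the families to -0.087 and -0.253, with 15 and 21 of 24 lower, and array weights gave -0.089 and -0.166. Over all probe sets the calls were 2441 with the replicate block, 2460 with array weights, 562 with no shared spread, and 663 to 1513 with single arrays left out (705, 799 and 663 without wild-type array 1, 2 or 3, and 898 without null array 1). With single arrays left out the difference ran from -0.088 to 0.047 for Osi6, from -0.276 to 0.082 for Osi20 and from -0.44 to 0.021 for TwdlG. The direction turned for Osi6 (0.021 without wild-type array 3, 0.047 without null array 2, 0.002 after quantile normalization, 0.084 after centring), Osi20 (0.082 without null array 2) and TwdlG (0.02 without wild-type array 1, 0.021 without null array 2, 0.089 with array weights). TwdlH passed with the replicate block (adjusted p = 0.0171), which moved no difference. The cause of these changes was not tested. Signals near the floor limit what could be seen, and a signal near the ceiling may do so for Osi6.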
